A study of Homo sapiens with 6 samples.

Results

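The protein parts of the mitochondrial ribosome, the nuclear factors that copy and express mitochondrial DNA (mtDNA) and the mtDNA-encoded ribosomal RNAs (rRNAs) were compared between adriamycin (ADR)-resistant and parent MDA-MB-231 cells. The members were chosen by gene name and biotype. They were all protein-coding rows whose symbol begins with MRPL or MRPS and a number, 9 named factors (TFAM, TFB1M, TFB2M, POLRMT, TWNK, POLG, MTERF1, LRPPRC and SLIRP), and the rRNA rows MT-RNR1 and MT-RNR2. That gave 89 of the 58735 genes in the table, made up of 49 MRPL genes, 29 MRPS genes, the 9 factors and the 2 rRNAs.

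RNA sequencing had been carried out on 3 libraries of parent MDA-MB-231 cells, labelled as wild type, and 3 libraries of an ADR-resistant line derived from them (here ADRr). MDA-MB-231 is a human triple-negative breast cancer line, and ADR (doxorubicin) is an anthracycline that binds DNA and blocks topoisomerase II. Both lines were kept in DMEM with fetal bovine serum and antibiotics. According to the methods, resistant cells were raised by stepwise exposure to ADR and single clones were then isolated by limiting dilution, so differences between 1 selected line and its parent cannot be told apart from differences between clones. The ADR dose at harvest is not stated in the sources used here, and the series text speaks of time points that the labels do not assign to libraries.

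Mitochondria keep their own small genome. It encodes 2 rRNAs, the transfer RNAs (tRNAs) and 13 mRNAs for subunits of the respiratory chain, and both strands are transcribed by the polymerase POLRMT into long precursors that are then cut. All protein parts of the mitochondrial ribosome are encoded in the nucleus, made in the cytosol and imported. Some descend from bacterial ribosomal proteins, while others have no bacterial counterpart and are specific to mitochondria. The ribosome translates only the mtDNA-encoded mRNAs, and its RNA comes from one genome and its proteins from the other.

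The libraries held between 15983985 and 18272314 counts assigned to genes, and 15242 genes passed the expression filter, all 89 members among them. A gene was called changed when the edgeR quasi-likelihood test gave it an adjusted p within 0.05 and its level differed by a factor of 1.2 or more. Changes between the lines were widespread, as 58.8% of tested genes were called, 29.2% higher and 29.6% lower in ADRr cells. The median log2 fold change over all tested genes was -0.01. Markers of the line were present, with VIM at a mean of 97.7 FPKM (fragments scaled to gene length and library size) in parent and 66.5 FPKM in ADRr cells. EGFR was at 38.9 and 102 FPKM in parent and ADRr cells. The hormone receptor genes ESR1 and PGR had at most 1 count in any library. The leukocyte markers PTPRC, CD53, LYZ and TYROBP had at most 4 counts, and the endothelial markers PECAM1, VWF and CDH5 at most 13. Of the fibroblast markers, DCN had no counts and COL3A1 at most 6, while PDGFRB was at 8.60 FPKM in parent and 1.15 FPKM in ADRr cells and COL1A1 at 2.80 and 1.82 FPKM. The epithelial marker EPCAM was at 4.88 and 10.5 FPKM. The part of these markers in the results was not tested. In bulk RNA, fewer cells of a type and less RNA per cell cannot be told apart.

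Both mitochondrial rRNAs rose in ADRr cells, by 3.08 times for MT-RNR1 and 3.19 times for MT-RNR2, whereas most mtDNA-encoded mRNAs fell. MT-RNR1, the rRNA of the small subunit, stood at 390, 419 and 384 CPM (counts scaled to library size, normalized between libraries) in the parent libraries and at 1220, 1180 and 1280 CPM in the ADRr libraries. The groups were far apart, and the log2 fold change was 1.62 (SE 0.0489, edgeR adjusted p = 6.87e-18). MT-RNR2, the rRNA of the large subunit, stood at 3670, 3880 and 3690 CPM in parent cells and at 11900, 11300 and 12600 CPM in ADRr cells. Again every ADRr library lay above every parent library, and the log2 fold change was 1.67 (SE 0.0442, edgeR adjusted p = 7.06e-19). Per length, MT-RNR1 rose from a mean of 408 to 1260 FPKM and MT-RNR2 from 2350 to 7540 FPKM. The ratio of MT-RNR2 to MT-RNR1 counts was between 9.28 and 9.61 in parent cells and between 9.54 and 9.90 in ADRr cells, so the 2 rRNAs moved nearly together.

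The methods describe selection of polyadenylated RNA before library construction. The rRNA values above, and the mRNA and tRNA values below, therefore count molecules that were carried through that step. The total amount of mitochondrial rRNA, mRNA or tRNA was not measured. The 13 nuclear MTRNR2L genes, which are copies of MT-RNR2, held at most 24 counts in any library and none of them passed the expression filter.

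Along the mitochondrial genome the direction of the difference changed close to the start of the mRNA genes. MT-ND1, the first mRNA gene after the rRNAs and a subunit of complex I, was higher in ADRr cells with a log2 fold change of 0.61 (SE 0.0478, edgeR adjusted p = 1.4e-10). It was the only mRNA of the 13 that rose. MT-CO1, the catalytic subunit of cytochrome c oxidase, was level with a log2 fold change of -0.00 (SE 0.0449). The other 11 mRNAs were all called lower, from -0.35 for MT-ND3 and MT-ND4 to -0.75 for MT-ATP6 and -0.80 for MT-ATP8, which are the mtDNA-encoded parts of ATP synthase. The median of the 13 mRNAs was -0.52. MT-ND6, which is encoded on the opposite strand to the other mRNAs, was also lower, by 0.62 on the log2 scale (SE 0.0541). Its neighbour MT-ND5 had -0.64 (SE 0.0499). Whether reads were assigned by strand is not given in the sources used here. The MT-ND6 row may thus also hold RNA of the other strand, and a fall of MT-ND6 itself cannot be told apart from that. The annotations of MT-ATP8 with MT-ATP6 and of MT-ND4L with MT-ND4 overlap, so values within each pair are not independent.

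**Figure D1:**
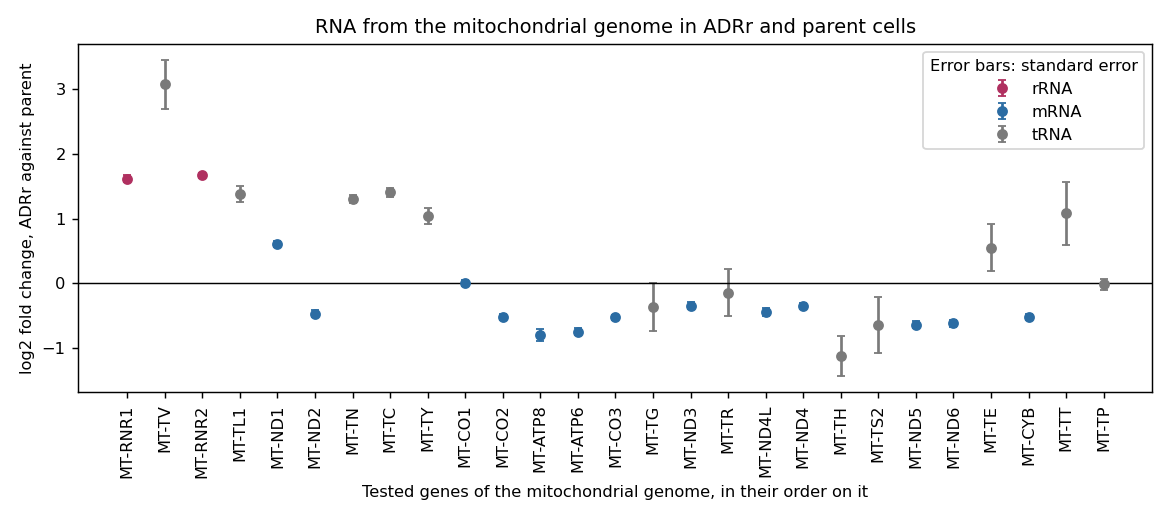
The horizontal axis gives the 27 tested genes of the mitochondrial genome in their order on it, and the vertical axis the log2 fold change of ADRr against parent cells with its standard error (n = 3 libraries per group). The 2 rRNAs and the genes up to MT-ND1 lie above 0, while every mRNA after MT-ND1 other than MT-CO1 lies between -0.35 and -0.80.

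The 2 tRNA genes that flank MT-RNR2 rose with the rRNAs. Their sequences are shown because they mark where the precursor is cut between MT-RNR1, MT-RNR2 and MT-ND1, and because the second contains the binding site of the termination factor MTERF1. They are taken from the GENCODE transcripts of the mitochondrial genome and are given whole, in lower case.
MT-TV: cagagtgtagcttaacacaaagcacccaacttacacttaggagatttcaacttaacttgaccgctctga
MT-TL1: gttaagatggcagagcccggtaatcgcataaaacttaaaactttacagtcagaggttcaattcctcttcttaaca

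MT-TV, the valine tRNA between the rRNAs, had 7, 12 and 2 counts in parent libraries and 65, 53 and 73 counts in ADRr libraries. Its log2 fold change was 3.08 (SE 0.38, edgeR adjusted p = 2.4e-07), on few reads, and it was 3.74 without parent library 2. At 0.421, 0.758 and 0.114 CPM the parent libraries would not have passed the expression filter by themselves. MT-TV was thus tested only through the group where it was high, and its p-value is limited by that. MT-TL1, the leucine tRNA between MT-RNR2 and MT-ND1, had 110, 137 and 128 counts in parent and 399, 321 and 312 counts in ADRr libraries. Its log2 fold change was 1.38 (SE 0.129, edgeR adjusted p = 2.62e-09). A neighbouring cluster of tRNA genes between MT-ND2 and MT-CO1 was higher too, with log2 fold changes of 1.30 for MT-TN, 1.41 for MT-TC and 1.04 for MT-TY. These lie on the opposite strand to MT-ND2 and MT-CO1, and whether reads were assigned by strand is not given in the sources used here, so the strands cannot be told apart. In contrast MT-TH, the histidine tRNA between MT-ND4 and MT-ND5, was lower with a log2 fold change of -1.13 (SE 0.309), on 75, 56 and 79 counts in parent and 60, 17 and 24 counts in ADRr libraries. It was -1.81 without ADRr library 1, the highest of its group. Of the 22 tRNA genes only 12 passed the filter, of which 5 were called higher (41.7%), MT-TV among them, and 1 lower (8.33%). The shares of all tested genes were 29.2% and 29.6%. The tRNA genes are between 59 and 75 bases long, and reads of mature tRNAs and of their precursors cannot be told apart in these counts.

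The summed mitochondrial share of the libraries did not separate the groups. All mitochondrial rows together took 4.63%, 4.91% and 4.64% of counts in parent libraries and 4.89%, 4.69% and 5.26% in ADRr libraries. The ranges overlapped, and an exact two-sided permutation test gave p = 0.3 with 3 libraries per group, where 0.1 is the smallest p possible. Within that total the share of the 2 rRNAs went from 0.410% ± 0.0136 to 1.33% ± 0.0700 of counts (SD, n = 3), and the share of the 13 mRNAs from 4.29% ± 0.145 to 3.56% ± 0.221. The ratio of rRNA to mRNA counts was therefore between 0.0953 and 0.0959 in the parent libraries and between 0.367 and 0.380 in the ADRr libraries. Both parts of this ratio are RNA carried through the selection of polyadenylated RNA, and the part of that step in it was not tested. Between adjacent mRNAs, the ratio of MT-ND1 to MT-ND2 on the FPKM scale lay between 0.612 and 0.692 in parent cells and between 1.35 and 1.44 in ADRr cells. These ratios are taken within a library and do not depend on the scaling between libraries. The exact 95% binomial interval of a library's mitochondrial share was narrow, as in the first parent library with 4.62% to 4.64%, but such intervals cover counting error only.

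Among the 9 nuclear factors, the direction differed from gene to gene. LRPPRC rose, POLG fell, TWNK and POLRMT rose slightly, and the other 5 were not called.

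The 4 genes of mtDNA transcription moved little. POLRMT, the mitochondrial RNA polymerase, stood at 59.3, 53.8 and 67.3 CPM in parent and at 74.1, 73.9 and 70.6 CPM in ADRr libraries, which did not overlap. Its log2 fold change of 0.27 (SE 0.0733, edgeR adjusted p = 0.00224) was just above the fold threshold. It dropped below the threshold, to 0.26 and 0.20, when parent library 1 or parent library 2 was left out. TFAM, which packages mtDNA and starts its transcription, stood at 133, 139 and 118 CPM in parent and at 127, 123 and 122 CPM in ADRr cells. Its groups overlapped, and the log2 fold change was -0.07 (SE 0.0608, edgeR adjusted p = 0.342). TFB2M, which helps POLRMT open the promoter, had a log2 fold change of 0.03 (SE 0.0907) and lay between 22.4 and 26.2 CPM in all 6 libraries. MTERF1, the factor that binds within MT-TL1, lay between 8.99 and 11.2 CPM in parent and between 10.8 and 12.6 CPM in ADRr cells, with a log2 fold change of 0.20 (SE 0.125, edgeR adjusted p = 0.156). None of these 4 transcripts changed by as much as the mitochondrial rRNAs.

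TFB1M, which methylates the small-subunit rRNA, lay between 5.74 and 7.15 CPM in parent and between 6.72 and 7.69 CPM in ADRr cells. The log2 fold change was 0.23 (SE 0.154, edgeR adjusted p = 0.195), the groups overlapped, and it was not called.

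The 2 factors of mtDNA replication moved in opposite directions. POLG, the catalytic subunit of the mtDNA polymerase, stood at 109, 101 and 121 CPM in parent and at 59.2, 58.0 and 57.5 CPM in ADRr libraries. Every ADRr library was well below every parent library, and the log2 fold change was -0.92 (SE 0.0675, edgeR adjusted p = 4.42e-11). TWNK, the replicative helicase Twinkle, stood at 40.1, 40.0 and 42.0 CPM in parent and at 47.6, 53.1 and 52.2 CPM in ADRr cells, with a log2 fold change of 0.32 (SE 0.0722, edgeR adjusted p = 4.31e-04). For POLG, 7.66% of the exon bases are shared with FANCI, so part of its reads may be ambiguous.

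LRPPRC and its partner SLIRP form a complex that binds mitochondrial mRNAs and keeps them stable. LRPPRC stood at 201, 225 and 196 CPM in parent and at 471, 459 and 485 CPM in ADRr libraries. The log2 fold change was 1.19 (SE 0.0544, edgeR adjusted p = 1.13e-14), which made it the nuclear member with the largest difference. SLIRP stood at 34.7, 38.7 and 44.1 CPM in parent and at 41.5, 49.2 and 49.8 CPM in ADRr cells, and its groups overlapped. Its log2 fold change of 0.26 (SE 0.0894, edgeR adjusted p = 0.0155) was just below the fold threshold. Without ADRr library 1 or parent library 3 it was 0.35 and was called.

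**Figure D2:**
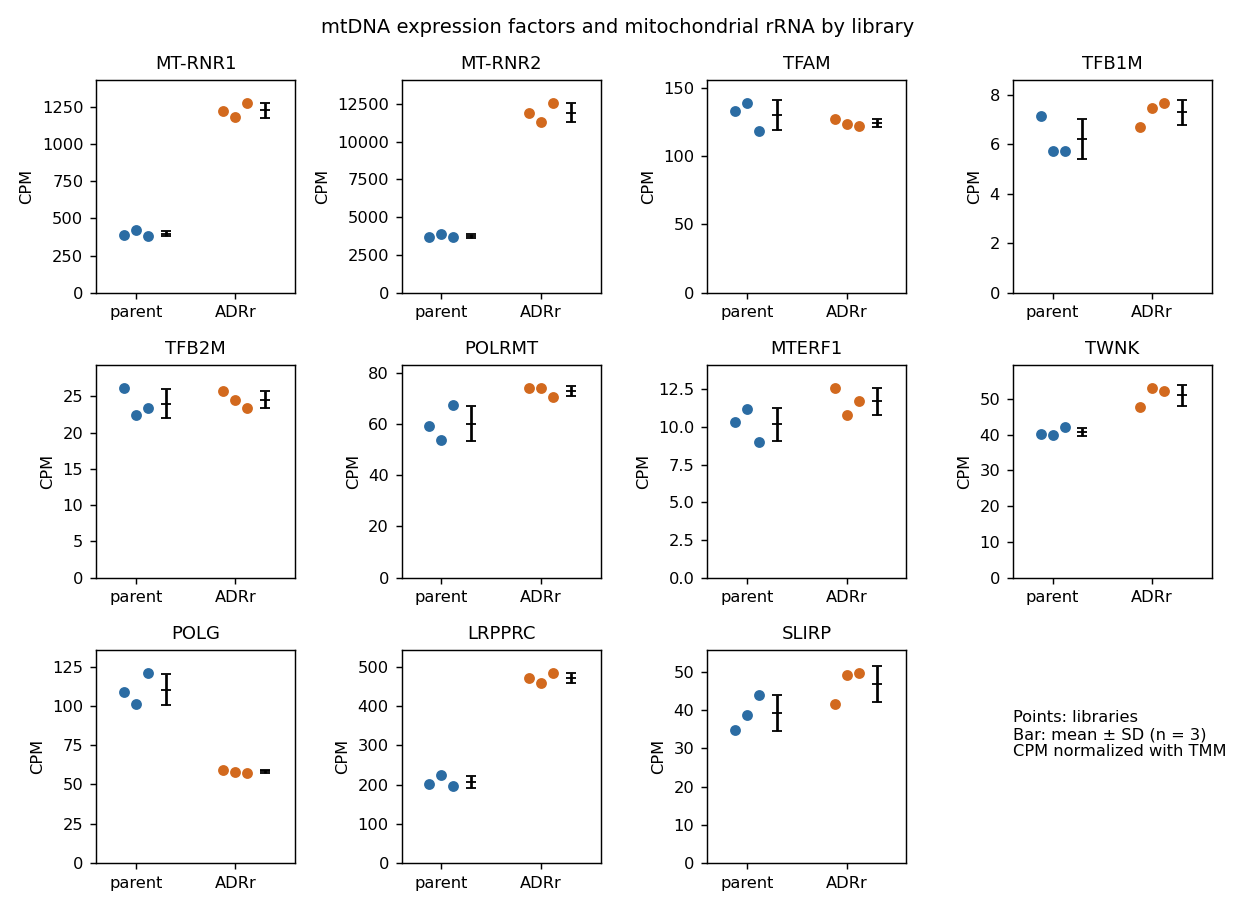
Each panel shows 1 gene, with normalized CPM on the vertical axis from 0, the 3 parent and 3 ADRr libraries as points and the mean ± SD beside them. The rRNAs and LRPPRC are higher and POLG is lower in all 3 ADRr libraries, whereas TFAM and TFB2M overlap between the groups.

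The mitochondrial ribosomal protein (MRP) genes moved in both directions and by small amounts. Of the 78 MRPL and MRPS genes, 15 were called higher and 25 lower, and 38 were not called. That is 19.2% higher and 32.1% lower, beside 29.2% and 29.6% of all tested genes and 30.2% and 32.1% of tested protein-coding genes, so the share called lower was at the background. No MRP gene changed by a log2 fold change of 1 or more, while 18.8% of all tested genes were called with a change of that size. The range was -0.87 to 0.70 and the median -0.06. Of all 89 members, the ADRr libraries lay wholly above the parent libraries for 28 and wholly below for 29, and over all tested genes 69.2% did not overlap, with 34.5% above and 34.7% below. Summed over the MRP genes, the counts made up 0.345% ± 0.00889 of the parent libraries and 0.349% ± 0.00603 of the ADRr libraries (SD, n = 3).

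**Figure D3:**
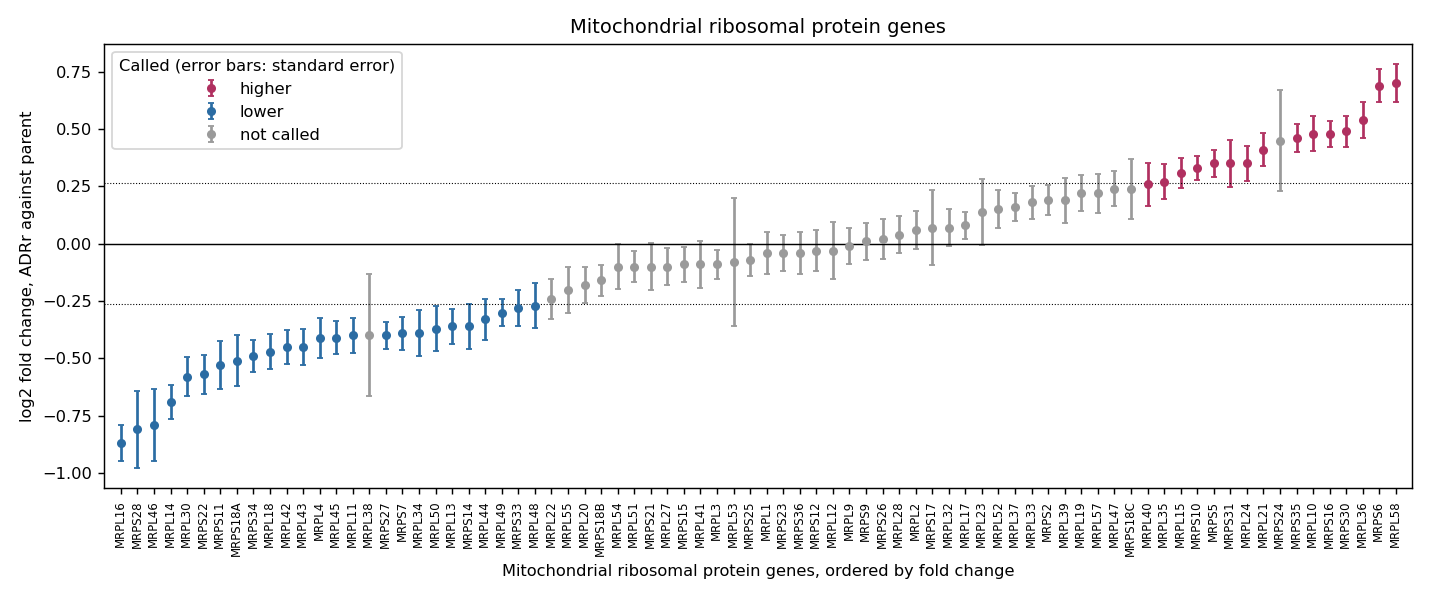
The 78 MRP genes are ordered along the horizontal axis by their log2 fold change of ADRr against parent cells, which the vertical axis gives with its standard error (n = 3 libraries per group). The dotted lines mark the fold threshold of 1.2 at 0.263 on the log2 scale, and the genes run from -0.87 for MRPL16 to 0.70 for MRPL58.

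Of the 49 MRPL genes, 8 were called higher (16.3%) and 16 lower (32.7%), with a median of -0.09. Of all tested genes 29.2% were called higher and 29.6% lower. MRPL58, a peptidyl-tRNA hydrolase built into the large subunit that frees stalled chains, rose most. It stood at 28.2, 24.0 and 26.4 CPM in parent and at 40.9, 45.4 and 41.6 CPM in ADRr libraries, with no overlap and a log2 fold change of 0.70 (SE 0.0832, edgeR adjusted p = 1.28e-07). Next came MRPL36 with 0.54, MRPL10 with 0.48, MRPL21 with 0.41 and MRPL24 with 0.35, all homologues of bacterial proteins. MRPL36 stood at 35.6, 31.5 and 36.3 CPM in parent and at 49.4, 52.5 and 48.3 CPM in ADRr cells.

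MRPL16, a homologue of a bacterial large-subunit protein, fell most among the MRP genes. It stood at 55.7, 52.9 and 54.9 CPM in parent and at 29.7, 32.9 and 27.0 CPM in ADRr libraries. Every ADRr library was below every parent library, and the log2 fold change was -0.87 (SE 0.0793, edgeR adjusted p = 1.9e-09). MRPL46 fell by 0.79 on the log2 scale (SE 0.157), from a low level of 7.64 to 9.61 CPM in parent cells. MRPL14 stood at 85.9, 92.9 and 103 CPM in parent and at 57.7, 64.0 and 53.6 CPM in ADRr cells, a log2 fold change of -0.69 (SE 0.0745, edgeR adjusted p = 3.12e-08). MRPL30 and MRPL18 followed with -0.58 and -0.47.

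Of the 29 MRPS genes, 7 were called higher (24.1%) and 9 lower (31.0%), with a median of -0.04. The shares of all tested genes were 29.2% and 29.6%. MRPS6 rose most, from 29.7, 30.9 and 29.3 CPM in parent to 48.2, 49.1 and 47.9 CPM in ADRr libraries, with a log2 fold change of 0.69 (SE 0.0732, edgeR adjusted p = 2.17e-08). MRPS30 rose by 0.49, MRPS16 by 0.48, MRPS35 by 0.46 and MRPS5 by 0.35 on the log2 scale. MRPS16 stood at 114, 109 and 123 CPM in parent and at 158, 162 and 161 CPM in ADRr cells, without overlap. MRPS28 fell most, from 8.47, 6.95 and 8.42 CPM to 4.0, 4.28 and 5.29 CPM, with a log2 fold change of -0.81 (SE 0.167, edgeR adjusted p = 1.86e-04). MRPS22 stood at 31.4, 33.9 and 32.0 CPM in parent and at 23.3, 21.3 and 20.9 CPM in ADRr cells, a log2 fold change of -0.57 (SE 0.0856, edgeR adjusted p = 3.77e-06). MRPS11, MRPS18A and MRPS34 fell by 0.53, 0.51 and 0.49 on the log2 scale.

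The 3 MRPS18 genes are paralogues, and their products sit at different places in the ribosome, MRPS18A in the large and the other two in the small subunit. MRPS18A stood at 16, 16.9 and 16.7 CPM in parent and at 10.6, 11.2 and 13.1 CPM in ADRr cells, and was called lower. MRPS18B had a log2 fold change of -0.16 (SE 0.0683) and MRPS18C of 0.24 (SE 0.131), and neither was called. MRPS18C was called, with 0.36 and 0.31, when ADRr library 2 or parent library 3 was left out. Of their exon bases, 47.0% in MRPS18A and 40.2% in MRPS18C overlap other annotated genes. MRPS36, which carries an MRP name but is a part of the 2-oxoglutarate dehydrogenase complex, was level at -0.04 (SE 0.0905).

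The MRP genes were also grouped by whether their proteins were assigned as homologues of bacterial ribosomal proteins or as mitochondria-specific. The assignment follows single proteins and is not strictly one of origin. MRPS18A and MRPS18B are in the mitochondria-specific set, although their paralogue MRPS18C is among the homologues. The members called lower were spread over all groups. Of the 46 homologues of bacterial proteins 10 were higher (21.7%) and 12 lower (26.1%), with a median of 0.00. Of the 31 proteins assigned as mitochondria-specific 5 were higher (16.1%) and 13 lower (41.9%), with a median of -0.10. Among all tested protein-coding genes 30.2% were higher and 32.1% lower. In the large subunit the mitochondria-specific set had 3 higher and 9 lower of 21, and in the small subunit 2 higher and 4 lower of 10. No test of the difference between the sets was made. Since MRPS18A and MRPS30 are large-subunit proteins, the large subunit held 51 of the MRP genes, of which 9 were higher and 17 lower, and the small subunit 26, of which 6 were higher and 8 lower.

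The levels of single MRP genes differed widely on the FPKM scale. In parent cells the highest were MRPL14 with 95.9 FPKM, MRPS34 with 66.5 FPKM and MRPS10 with 58.1 FPKM. The lowest were MRPL38 with 0.778 FPKM, MRPS24 with 0.999 FPKM and MRPL46 with 1.35 FPKM. These 3 share 37.5%, 23.2% and 11.3% of their exon bases with other annotated genes on the same strand. Part of their reads may be ambiguous, so their levels may be understated. MRPS10 was the highest MRP gene in ADRr cells, at 73.2 FPKM beside 59.8 FPKM for MRPL14, and it rose by 0.33 on the log2 scale (SE 0.0526, edgeR adjusted p = 9.18e-06). Summed FPKM of the large-subunit genes was between 2.15 and 2.20 times that of the small-subunit genes in the parent libraries and between 2.03 and 2.05 times in the ADRr libraries, without overlap. The sum for the small subunit lay between 461 and 495 FPKM in parent and between 485 and 499 FPKM in ADRr cells. For the large subunit it lay between 991 and 1070 FPKM in parent and between 984 and 1020 FPKM in ADRr cells. Each sum thus overlapped between the groups, and sums weigh the highest genes most, such as MRPL14 in the large subunit.

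**Figure D4:**
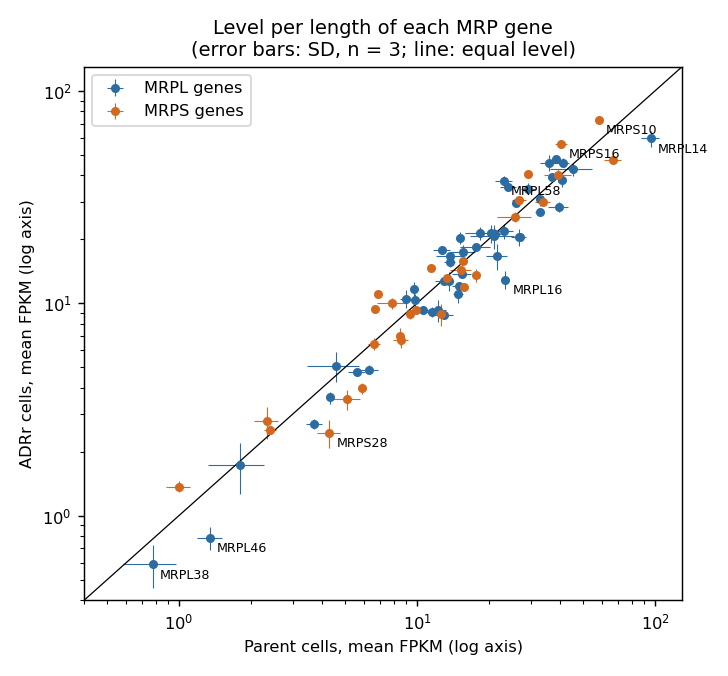
Each point is 1 MRP gene, with its mean FPKM in parent cells on the horizontal and in ADRr cells on the vertical log axis, SD bars over 3 libraries, and a line of equal level. Points lie close to the line over the whole range, with MRPL16, MRPS28 and MRPL46 below it and MRPL58 and MRPS16 above it.

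Several members lie in stretches of a chromosome where the neighbouring genes moved too. The median log2 fold change of the 50 nearest tested genes was taken as the level of the neighbourhood. It was at least 0.263 for 8 of the 87 nuclear members and at most -0.263 for 13. The share of all tested genes in such neighbourhoods was not computed, so these counts cannot be set against a background. On chromosome 15, POLG, MRPL46 and MRPS11 were all called lower, and their neighbours had medians between -0.53 and -0.48. On chromosome 6 the neighbours of all 7 members had medians between -0.43 and -0.29. MRPS6 on chromosome 21 lay among genes with a median of 0.60, and LRPPRC on chromosome 2 among genes with a median of 0.56. With the neighbours' median subtracted, LRPPRC remained at 0.63 and POLG at -0.44, but MRPS6 came to 0.09, MRPS11 to -0.00, MRPS18A to -0.12, MRPL18 to -0.14 and both MRPL14 and MRPL46 to -0.26, all short of the fold threshold. In contrast MRPS10 on chromosome 6 and MRPL42 on chromosome 12 moved against their neighbours, with differences of 0.70 and -0.85. Subtraction left MRPL16 at -0.87, MRPL58 at 0.81 and MRPS28 at -0.88, nearly as before or larger. The part of the neighbourhood in these values was not tested.

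Many members share a start region with a gene on the other strand. Of the 87 nuclear members, 32 had a protein-coding partner whose annotated start lay within 1000 bases on the opposite strand. They formed 31 pairs. Both genes were called in the same direction in 7 pairs and in opposite directions in 3. In the other 21 the genes were not both called. The same shares for pairs of other genes were not computed. MRPL46 and MRPS11 form such a pair on chromosome 15, with starts 34 bases apart, and both fell. MRPL43 and TWNK form another on chromosome 10, with starts 148 bases apart, and moved in opposite directions, MRPL43 by -0.45 (SE 0.077) and TWNK by 0.32. Of the exon bases of TWNK, 3.61% overlap MRPL43. MRPL43 shares 36.9% of its exon bases with SEMA4G and TWNK together. MRPL36 rose by 0.54 while its partner NDUFS6, a subunit of complex I with its start 34 bases away, had a log2 fold change of -0.40 (edgeR adjusted p = 9.65e-04).

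Other nuclear genes of mitochondrial gene expression also moved in both directions. Of 109 tested genes in 7 lists, 29 were called higher and 37 lower, with a median of -0.04. Their shares of 26.6% higher and 33.9% lower were near those of all tested genes, 29.2% and 29.6%, which are also the background for each list. Among factors for ribosome assembly and rRNA modification, 7 of 24 were higher and 10 lower, with YBEY, an endoribonuclease, at 1.09 and NOA1, a GTPase of small-subunit assembly, at -1.43. Among RNA processing and decay factors, 4 of 18 were higher and 4 lower. PNPT1, the polynucleotide phosphorylase of the mitochondrial degradosome, was at 0.79, and GRSF1, an RNA granule protein that binds mitochondrial transcripts, was at -0.98. PNPT1 came to 0.17 once its neighbours' median was subtracted.

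Among translation factors, 3 of 13 were higher and 2 lower, with the initiation factor MTIF2 at 0.76 and the elongation factor TSFM at -0.58. MTIF2 came to 0.10 with its neighbours subtracted. Of the aminoacyl-tRNA synthesis genes, 4 of 20 were higher and 8 lower, from LARS2 at -1.17 to PARS2 at 0.98. In mtDNA upkeep, 6 of 18 were higher and 8 lower, from DNA2, a helicase-nuclease, at -1.72 to MPV17, an inner-membrane protein, at 1.31. Of 11 tested regulators of mitochondrial biogenesis 3 were higher and 3 lower, with MYC at 0.95 and HCFC1 at -0.98. Of the 5 mitoribosomal proteins with other names, DAP3 rose by 0.71 on the log2 scale and AURKAIP1 fell by 0.67. For scale, 11 of 82 tested cytosolic ribosomal protein genes were higher and 27 lower, with a median of -0.03, from RPS6 at -1.29 to RPL22L1 at 1.95.

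**Figure D5:**
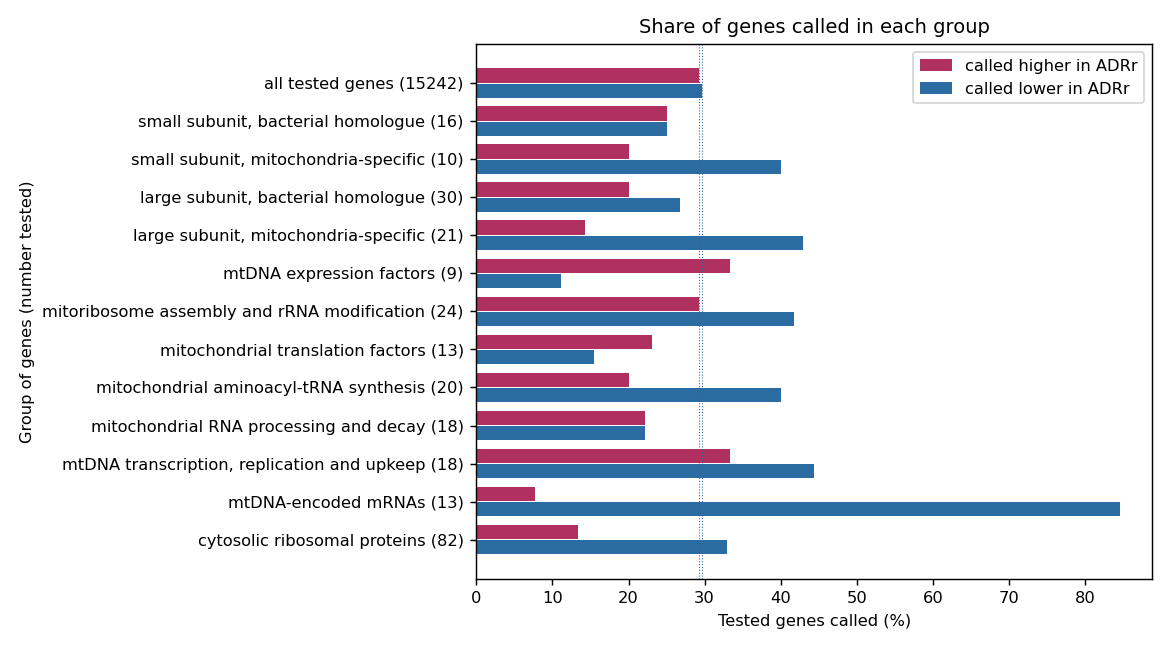
Horizontal bars give the percentage of tested genes in each group that were called higher or lower in ADRr cells, the number tested stands beside each name, and dotted lines mark 29.2% and 29.6% of all tested genes. The mtDNA-encoded mRNAs stand apart with 84.6% lower, and the nuclear groups have calls in both directions.

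The promoters of the nuclear members were then searched for motifs known from genes of mitochondrial biogenesis. RefSeq promoters (GRCh38.p14, from 250 bases before to 50 after the start) were matched for 77 of the 87 nuclear members. The motifs were GCGCA, any base and GCGC for NRF1, CCGGAAG for ETS factors such as GABPA, CACGTG for the E-box and AAGATGGC for YY1, on both strands, and no member promoter had different motifs that overlapped. The ETS motif was in 42.9% of member promoters, beside 10.7% of all 27305 promoters and 19.6% of the promoters of tested protein-coding genes. The YY1 motif was in 27.3% of them, beside 3.03% and 5.42%. The NRF1 motif was in 14.3%, beside 6.28% and 11.7%, and the E-box in 7.79%, beside 7.43% and 10.2%. By direction, the ETS motif was found in 6 of 13 members called higher, 8 of 24 called lower and 19 of 40 not called, and the YY1 motif in 3, 7 and 11 of them. A match is a description of the letters and not evidence of binding.

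The 6 promoters below belong to members that rose, fell or were not called, with ETS motifs in members of either direction. Capitals mark the motifs on either strand, sequences run 5′ to 3′ on the strand of the gene, and coordinates are of GRCh38.p14. TFAM holds 1 NRF1 motif and was level, POLRMT holds 2 overlapping NRF1 matches and 1 ETS motif and rose by 0.27, and MRPL58 holds 2 ETS motifs and rose by 0.70. MRPL36 holds 1 NRF1, 1 E-box and 1 YY1 motif and rose by 0.54. MRPL16 holds 1 ETS motif and fell by 0.87, and MRPS22 holds 3 ETS motifs and fell by 0.57.
TFAM, chr10:58385160-58385459, + strand: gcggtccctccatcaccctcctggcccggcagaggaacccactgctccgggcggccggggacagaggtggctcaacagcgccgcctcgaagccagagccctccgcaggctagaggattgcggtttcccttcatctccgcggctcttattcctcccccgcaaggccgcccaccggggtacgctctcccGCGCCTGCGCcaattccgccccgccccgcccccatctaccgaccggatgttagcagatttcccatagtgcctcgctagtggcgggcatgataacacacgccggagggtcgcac
POLRMT, chr19:633488-633787, - strand: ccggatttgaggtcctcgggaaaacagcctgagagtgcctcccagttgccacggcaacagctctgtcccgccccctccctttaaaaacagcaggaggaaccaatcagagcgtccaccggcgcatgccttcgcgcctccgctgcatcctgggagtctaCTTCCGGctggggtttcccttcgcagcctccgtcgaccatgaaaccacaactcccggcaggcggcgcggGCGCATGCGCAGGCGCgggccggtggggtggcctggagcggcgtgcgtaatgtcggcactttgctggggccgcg
MRPL58, chr17:75012420-75012719, + strand: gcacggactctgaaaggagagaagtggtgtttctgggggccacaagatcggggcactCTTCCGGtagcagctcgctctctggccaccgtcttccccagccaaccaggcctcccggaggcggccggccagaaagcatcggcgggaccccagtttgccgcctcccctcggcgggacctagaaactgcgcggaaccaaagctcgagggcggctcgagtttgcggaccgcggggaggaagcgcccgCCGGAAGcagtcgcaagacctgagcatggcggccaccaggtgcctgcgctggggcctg
MRPL36, chr5:1799788-1800087, - strand: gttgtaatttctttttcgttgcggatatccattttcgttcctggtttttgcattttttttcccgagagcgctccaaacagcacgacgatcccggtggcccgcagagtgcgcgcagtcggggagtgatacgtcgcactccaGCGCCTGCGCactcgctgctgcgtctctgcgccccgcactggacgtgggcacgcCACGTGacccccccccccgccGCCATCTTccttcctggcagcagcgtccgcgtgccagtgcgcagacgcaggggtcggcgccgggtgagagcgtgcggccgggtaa
MRPL16, chr11:59810729-59811028, - strand: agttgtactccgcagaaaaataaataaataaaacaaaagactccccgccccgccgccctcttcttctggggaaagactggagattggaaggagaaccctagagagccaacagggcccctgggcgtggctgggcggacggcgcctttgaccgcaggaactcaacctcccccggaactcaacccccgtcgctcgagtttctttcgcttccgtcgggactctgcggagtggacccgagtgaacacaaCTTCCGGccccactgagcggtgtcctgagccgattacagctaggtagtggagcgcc
MRPS22, chr3:139343744-139344043, + strand: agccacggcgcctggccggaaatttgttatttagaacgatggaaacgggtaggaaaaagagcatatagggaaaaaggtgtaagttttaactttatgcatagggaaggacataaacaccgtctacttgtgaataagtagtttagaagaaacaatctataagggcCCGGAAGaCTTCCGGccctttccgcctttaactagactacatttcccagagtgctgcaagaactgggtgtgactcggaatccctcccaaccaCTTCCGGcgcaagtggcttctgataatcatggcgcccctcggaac

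Transcripts of the regulators that bind such motifs were also measured. NRF1 had a log2 fold change of -0.29 and was called lower, and so was GABPB1, a GABP subunit, with -0.42. GABPA, GABPB2 and YY1 had values of 0.19, -0.17 and 0.23 and were not called. YY1 fell short of the fold threshold only (edgeR adjusted p = 6.37e-04). MYC, a factor of the E-box, was called higher with 0.95.

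Reads of overlapping genes limit some of these values. Of the 89 members, 45 shared exon bases with another annotated gene, on either strand. For 1 member, MRPL12, the shared part was over 50% of its exon bases, at 68.2%. Of the 75 MRP pseudogenes that were counted, 2 passed the filter. Among them MRPL45P2, with at most 95 counts in any library, was called higher with 0.51. MRPL45 was called lower with -0.41. Its neighbours on chromosome 17 had a median of -0.51, and with that subtracted it came to 0.10. Whether reads were split between genes and their pseudogenes was not tested.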

How the data were processed

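Libraries were prepared by the authors from total RNA with selection of polyadenylated RNA and sequenced as paired-end reads. The submitters' processing notes name fastp, HISAT2 2.0.5 on GRCh38, featureCounts 1.5.0-p3 and DESeq2 1.20.0, and strandedness is not given in the sources used here. Raw counts per gene and FPKM values were deposited by the authors, in a table for each, and carry Ensembl gene IDs.

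Counts of 15242 genes passing filterByExpr were fitted with edgeR 4.0.16 (TMM, quasi-likelihood test, Benjamini-Hochberg over all tested genes, R 4.3.3), 3 parent against 3 ADRr libraries. Genes were called with an adjusted p within 0.05 and a factor of 1.2 or more either way. Totals were 15983985 to 18272314 counts per library. A count of 3 corresponds to 0.164 to 0.188 CPM, and intervals cover counting error only. The scripts were tested on simulated data. Since the labels do not say that replicates were separate cultures, p-values measure the spread between these libraries, which may be technical. No libraries agreed within sampling noise. FPKM was used for levels and in an alternative with limma 3.58.1. DESeq2 1.42.0 was another. Exon overlap was taken from GENCODE 29, whose gene lengths match for all 89 members, and promoters from RefSeq.

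Members and lists were chosen with earlier results of these data known. Genes named were the 9 factors and 2 rRNAs, the 5 largest called increases and decreases among MRPL and among MRPS genes, the MRPS18 paralogues, MRPS36 and MRPL58, the 3 highest and 3 lowest MRP genes by parent FPKM, and the extreme called genes of each list. NDUFS6, MRPL42, MRPL43, MRPL45, MRPL12, MRPL45P2, NRF1, GABPA, GABPB1, GABPB2, YY1, MRPS10 and single mtDNA genes were named after their values were seen.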

Additional observations from a re-analysis of the deposited data

How the results depend on the processing

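Other scalings (DESeq2 size factors, library size alone, mitochondrial rows left out), DESeq2, limma on log2(FPKM + 1) and log2(FPKM + 0.1), filters and left-out libraries gave between 43 and 49 called members, beside 46, of which 43 to 46 were called in the same direction in the main setting, and none turned direction. The rRNA values stayed between 1.59 and 1.72. The median of all genes lay between -0.009 and 0.02 in these settings. At a log2 threshold of 1.2, 2 members were higher and 0 lower, and at 1, 3 were higher and 0 lower, with 0 MRPL and 0 MRPS genes in either direction. With the adjusted p alone 13 MRPL genes were higher. Subtracting the neighbours altered the fold change only. The adjusted p stayed that of the unsubtracted value, so the differences themselves were not tested. The rRNAs have no such neighbours and dropped out. In that setting 34 of the 87 nuclear members were called, 30 of them as before, and 10 MRPL genes were lower. Leaving out a library moved the median of the members between -0.06 and 0.01 and that of the MRP genes between -0.09 and -0.01, and the latter was -0.03 with library size alone or with neighbours subtracted. POLRMT lost its call with neighbours subtracted (0.22) and without parent library 1 or 2, within a range of 0.20 to 0.36 over the left-out libraries. SLIRP was called at a minimum of 10 counts (0.27), with library size alone (0.28), with neighbours subtracted (0.27) and without ADRr library 1 or parent library 3, within 0.17 to 0.35 over the left-out libraries. With neighbours subtracted 1 RNA processing gene and 1 translation factor were higher, beside 4 and 3, and limma called 8 mtDNA tRNAs higher, beside 5. With promoters cut to 100 bases before the start, 6.49% of member promoters held NRF1 and 1.30% the E-box. Causes of these shifts were not tested.

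Replicate numbers were not used to pair the libraries in the main fit. Deviations of same-numbered libraries correlated at 0.007, -0.021 and -0.046. The labels do not say whether such libraries were handled together, and these correlations cannot decide it. With the replicate block 45 members were called, 19 higher and 26 lower, and all 45 were called without it, so that 1 call was lost. Depth limits members near 1 FPKM, and 3 libraries per group limit exact tests.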
